A study of Mus musculus with 5 samples.

Results

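Interferon-stimulated genes were examined in mammary epithelial cells from mice in which the membrane metalloproteinase gene Mmp14 was targeted in the epithelium. The list held 36 mouse genes, and a gene counted as measured when the array had a probe set annotated to that gene and no other. This held for 32 of the 36, each with a single such probe set, out of 22180 genes measured in the same way. Oas1a, Gbp2 and Dtx3l lay only on probe sets that also carry another symbol, and no probe set was named for Ifi44, so these 4 were not analysed here. The knockout group, 2 arrays, carried MMTV-Cre with both Mmp14 alleles floxed. The wild-type group, 3 arrays, was Mmp14(f/f) littermates without Cre, so both groups shared the floxed alleles and the congenic FVB/NJ background. All mice were 4 weeks old. The MMTV promoter drives Cre in mammary epithelium and also in some other tissues, and the labels do not give the share of cells that recombined or whether an array held a single mouse or a pool. The p-values therefore measure the spread between these 5 samples.

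Interferons are secreted when cells sense viral or misplaced nucleic acid. Type I and type III interferons signal through JAK kinases to a complex that contains STAT2 and IRF9, which binds a sequence called the interferon-stimulated response element (ISRE) in the promoters of its target genes. The response to interferon gamma uses another promoter sequence, the gamma-activated site (GAS). The induced proteins sense or degrade viral RNA, block viral entry and assembly, or feed back on the pathway, and many are present at a low level in epithelium and in tissue macrophages without infection.

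RefSeq promoter windows of GRCm38.p6, each from 250 bases before to 50 bases after a gene start, were found for 23 of the 32 measured members. The ISRE core, GAAA followed by any 2 bases and GAAA again, read on both strands and with overlapping matches allowed, stood in the window of 13 of these 23 members (56.5%), against 3.87% of the 16990 tested genes with a window. The GAS core TTCNNNGAA stood in 6 of the 23 (26.1%), against 9.15%. The match lies before the gene start in 10 members, and 6 of these serve as examples. Capitals mark the bases covered by the ISRE core, which reads TTTC, any 2 bases and TTTC on the other strand, and each sequence runs 5′ to 3′ on the strand of the gene.
Isg15 (chr4:156200855-156200916, minus strand): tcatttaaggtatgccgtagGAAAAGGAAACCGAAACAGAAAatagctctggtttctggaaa
Ifit1 (chr19:34640765-34640833, plus strand): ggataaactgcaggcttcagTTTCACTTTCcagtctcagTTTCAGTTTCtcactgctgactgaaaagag
Igtp (chr11:58199502-58199551, plus strand): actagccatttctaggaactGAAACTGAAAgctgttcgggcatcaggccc
Gbp3 (chr3:142559979-142560034, plus strand): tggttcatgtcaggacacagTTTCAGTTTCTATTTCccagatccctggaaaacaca
Rsad2 (chr12:26456543-26456592, minus strand): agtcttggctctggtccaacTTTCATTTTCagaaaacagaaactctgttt
Bst2 (chr8:71537567-71537622, minus strand): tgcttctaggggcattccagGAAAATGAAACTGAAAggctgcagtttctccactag
In Isg15 the covered bases began 78 and ended 57 bases before the gene start and held 3 overlapping matches. In Ifit1 a pair of separate matches spanned bases 104 to 76 before the start, and the single match of Igtp spanned bases 34 to 25 before it. A match describes these letters and not binding, and a window without a match says only that the core is not in it.

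The values below are deposited log2 signals, so 1 unit is a factor of 2, and a difference is the knockout mean minus the wild-type mean, with limma's SE after ±. Signals are compared between arrays for the same probe set and never between genes. Mmp14 itself read 7.99 and 7.28 on the knockout arrays and 8.15, 8.67 and 7.75 on the wild-type arrays. The groups overlapped and differed by -0.56 ± 0.39 (SE; adjusted p = 0.919 in limma's test). Whether its probes lie in the floxed exons is not stated, so this signal does not check the genotypes. Over all probe sets, the medians of the 5 arrays ran from 4.24 to 4.29. The epithelial marker list, 15 genes measured, had a mean signal of 8.48 to 8.70 on the knockout arrays and 8.53 to 8.65 on the wild-type arrays. No detection calls were used, so a low signal cannot be told from background. In a bulk sample, fewer cells of a type and less RNA per cell cannot be told apart. By the numbers the labels give them, the arrays form 2 consecutive series, called runs here, and the labels say no more of them. Wild type 1, wild type 2 and knockout 1 are in run 1, and knockout 2 and wild type 3 are in run 2.

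No interferon-stimulated gene passed the test between knockout and wild type. With all 5 arrays, 0 of the 32 measured members passed limma's test at an adjusted p of 0.05, as did 0% of the 22180 genes, and 0 had an unadjusted p under 0.05 (1.3% of all genes). The mean was higher in the knockout for 11 members and lower for 21, where 46.3% of all genes were higher and 49.5% lower. The median difference over the members was -0.03 log2 units, and over all genes it was 0.00. Run 1 taken alone gave a median of 0.01, and run 2, with 1 array per genotype, gave -0.01. The groups did not overlap for Ifitm3, higher in the knockout, and for Zbp1, lower in the knockout, which is 1 member in each direction where 2.63% and 2.8% of all genes had such groups. The median SE of a member was 0.17, above the 0.07 of all genes. Without knockout 1, which leaves 1 knockout array, Trim25 (-0.14, limma adjusted p = 0.0209) and Oas3 (-0.098, limma adjusted p = 0.0189) passed along with 1757 genes in all, and both have equal values on at least 2 wild-type arrays. The median over the members was then -0.13, with 7 higher in the knockout, and without knockout 2 it was 0.06, with 23 higher. For 25 of the 32 members the 95% interval of the difference lay within 1 log2 unit on either side of 0 (78.1%, against 96% of all genes).

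**Figure D1:**
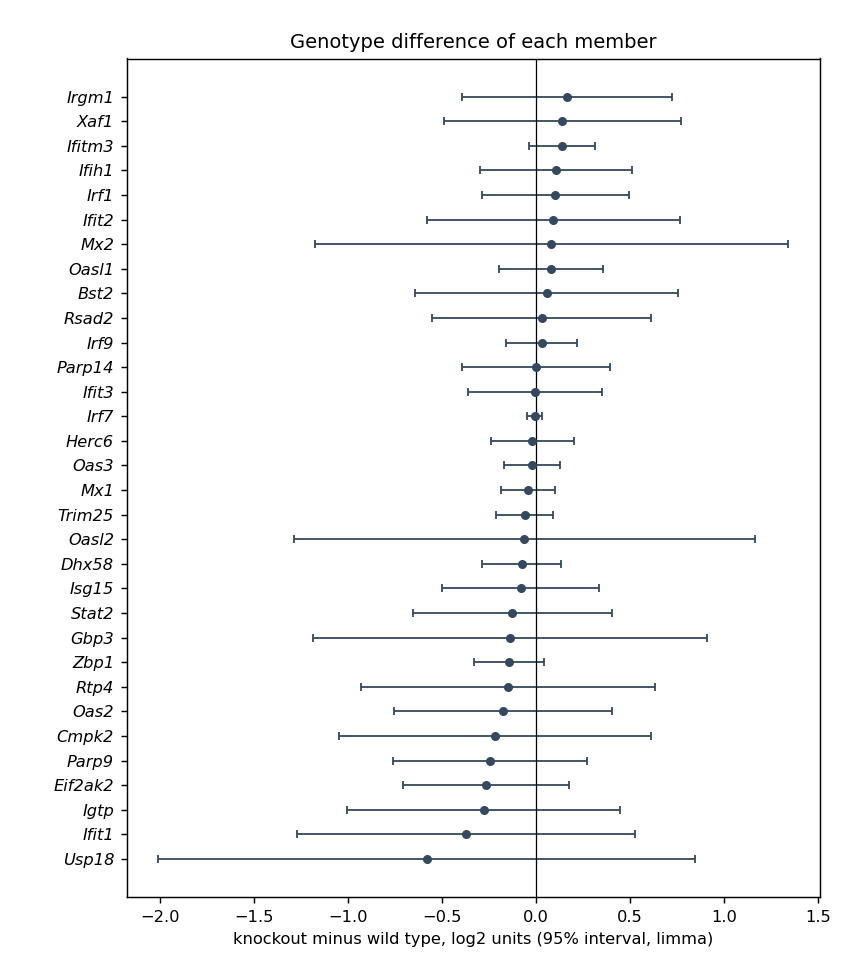
Knockout minus wild-type difference of each of the 32 measured members (x axis, log2 units), with limma's 95% interval as a bar, ordered by the difference. Every interval includes 0, and the interval of Usp18, from -2.01 to 0.85, is the widest.

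The transcription factors of the response showed small differences between the genotypes. Stat2, a subunit of the complex that binds the ISRE, read 5.64 and 5.75 on the knockout arrays and 5.76, 6.12 and 5.59 on the wild-type arrays (-0.13 ± 0.19, SE). Both knockout values lay inside the wild-type range. Irf9, the DNA-binding subunit of the same complex, read 6.17 on both knockout arrays and on wild type 3, with 6.03 and 6.22 on the other wild-type arrays. Irf7, which amplifies type I interferon production, varied least of all members and lay between 5.72 and 5.74 on the 5 arrays. Irf1, induced by interferon gamma, read 6.45 and 6.56 in the knockout against 6.45, 6.57 and 6.19 in the wild type, where wild type 3 was the lowest.

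The genes of the ISG15 cycle all had a lower mean in the knockout, by amounts within the spread of the arrays. Isg15, a ubiquitin-like protein attached to other proteins in the response, read 7.33 and 7.17 against 7.30, 7.55 and 7.15 (-0.08 ± 0.15, SE). Usp18, which removes ISG15 and dampens the type I receptor, read 5.89 and 4.41 in the knockout against 5.78, 5.84 and 5.57 in the wild type. Knockout 1 lay above every wild-type array and knockout 2 lay below them all by more than 1 log2 unit. Its difference of -0.58 ± 0.50 (SE; limma adjusted p = 0.919) was the largest among the members in size, and it was -1.32 without knockout 1 and 0.16 without knockout 2. Herc6, the ISG15 ligase of the mouse, read 6.12 on both knockout arrays against 6.04, 6.27 and 6.12. Trim25, a ubiquitin ligase that acts with the RNA sensor RIG-I, read 7.34 and 7.19 against 7.32, 7.33 and 7.32.

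The IFIT proteins, which bind viral RNA, did not share an order of the arrays. Ifit1 read 5.84 and 5.05 in the knockout against 5.77, 6.10 and 5.59 in the wild type. They differed by -0.38 ± 0.31 (SE; adjusted p = 0.919 in limma's test). Knockout 2 lay below the other 4 arrays, and without it the difference was 0.02. Ifit3, a binding partner of IFIT1, read 6.15 and 6.44 against 6.43, 6.20 and 6.26, with knockout 2 the highest of the 5. Ifit2 read 3.97 and 3.78 against 3.78, 4.12 and 3.44, with wild type 3 the lowest.

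The oligoadenylate synthetases make the second messenger that activates RNase L. Oas2 read 4.90 and 4.39 in the knockout and 4.998, 4.66 and 4.80 in the wild type. Oas3 read exactly 3.51 on each of the 3 wild-type arrays and 3.56 and 3.41 in the knockout. Oasl2, an OAS-like protein, read 5.87 and 4.65 in the knockout against 5.47, 5.41 and 5.09, so the knockout arrays were the highest and the lowest of the 5 and their mean differed from the wild type by -0.06 ± 0.43 (SE). It was 0.55 without knockout 2 and -0.67 without knockout 1. Its paralogue Oasl1 read 4.90 on both knockout arrays and on wild type 2.

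Among the sensors, Zbp1, which recognises Z-form nucleic acid and can trigger necroptosis, was the member with both knockout arrays below the wild type. It read 5.99 and 6.12 in the knockout against 6.16, 6.16 and 6.28, and differed by -0.15 ± 0.06 (SE; limma adjusted p = 0.919). The difference was -0.17 within run 1 and -0.16 within run 2, and after quantile normalization the groups overlapped. Eif2ak2, the RNA-dependent kinase PKR, read 6.14 and 5.75 against 6.36, 6.14 and 6.14 (-0.27 ± 0.15, SE). Ifih1, the RNA sensor MDA5, read 6.16 and 5.98 against 6.04, 6.10 and 5.74, and Dhx58, which assists it, differed by -0.08.

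Of the 8 measured effectors against viruses, the knockout mean was higher for 5 and lower for 3. Ifitm3, which blocks viral entry from endosomes, read 10.40 and 10.39 in the knockout against 10.22, 10.37 and 10.20 in the wild type. The lowest knockout value was above the highest wild-type value, and the means differed by 0.14 ± 0.06 (SE; limma adjusted p = 0.919), but the groups overlapped after quantile normalization. Bst2, tetherin, which holds budding virus at the membrane, read 5.96 and 5.24 against 5.59, 5.59 and 5.46. Rtp4, a receptor transporter protein, read 6.52 and 5.79 against 6.39, 6.44 and 6.08, and Xaf1, a protein that promotes cell death, read 7.32 and 6.84 against 6.71, 7.16 and 6.95. In each of these 3 genes knockout 1 was the highest of the 5 arrays. Rsad2, viperin, read 5.47 and 5.07 against 5.43, 5.31 and 4.99, and its genomic neighbour Cmpk2, a mitochondrial nucleotide kinase, read 5.21 and 4.56 against 5.18, 5.35 and 4.79. In both genes the run 2 array of each genotype was below its run 1 arrays. Mx2 read 5.30 and 4.56 against 4.91, 5.37 and 4.27, and Mx1, a GTPase that is defective in many laboratory strains, had an equal value of 2.93 on 4 of the 5 arrays.

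The interferon-inducible GTPases act at vacuoles that hold bacteria and parasites. Igtp read 6.42 and 5.76 in the knockout against 6.46, 6.49 and 6.14 (-0.28 ± 0.26, SE). Gbp3 read 5.17 and 4.52 against 5.04, 5.39 and 4.51, so knockout 2 and wild type 3 were almost equal. Irgm1, a regulator of the family, read 5.72 and 5.47 against 5.45, 5.69 and 5.15 and had the highest positive difference of the members, 0.17 ± 0.20 (SE). Parp9, which works with the ubiquitin ligase DTX3L, read 6.84 and 6.44 against 6.84, 7.08 and 6.73, and Parp14 differed by 0.00. In all 5 of these genes the run 2 array lay below the mean of the run 1 arrays in both genotypes.

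**Figure D2:**
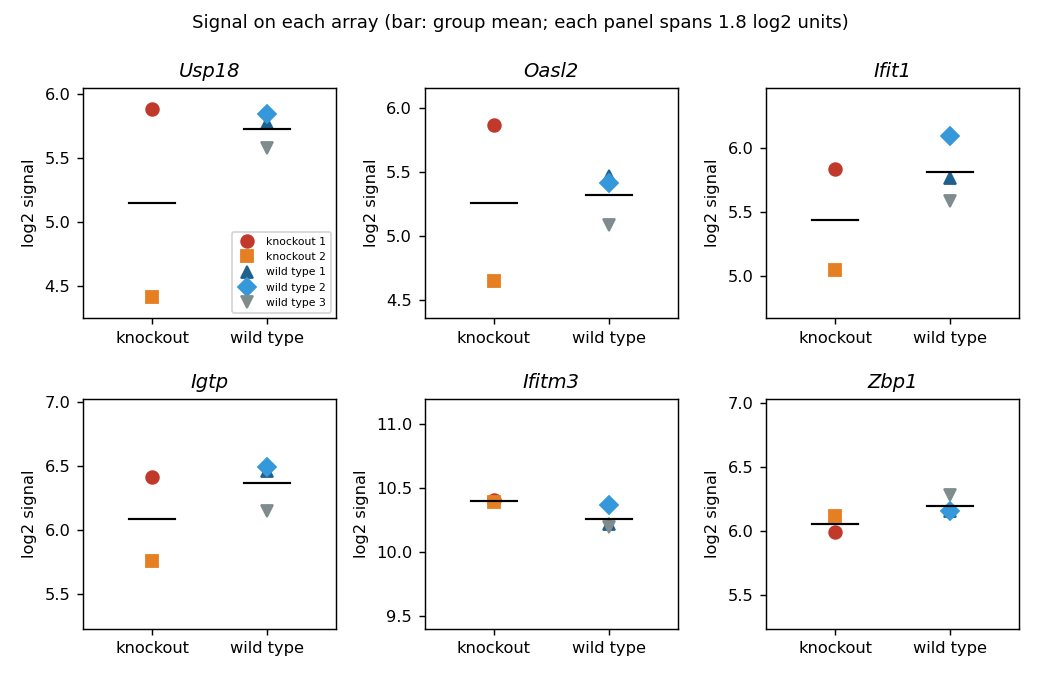
Log2 signal of Usp18, Oasl2, Ifit1, Igtp, Ifitm3 and Zbp1 on each array (y axis), by genotype, with a bar at the group mean and every panel spanning 1.8 log2 units. Usp18 and Oasl2 read 5.89 and 5.87 on knockout 1 but 4.41 and 4.65 on knockout 2, while both knockout arrays of Ifitm3 lie above and both of Zbp1 below the wild type.

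The arrays of a genotype lay further apart than the genotype means for most members. The gap between the knockout arrays was larger than the genotype difference for 25 of the 32 (59.8% of all genes), and the range of the wild-type arrays was larger for 26 (68.5% of all genes). Knockout 1 was above knockout 2 for 24 of the 32 members (75%, against 38.4% of all genes) and below it for 4 (12.5%, against 40.7%). The rest had equal values. Knockout 1 was above by more than 0.5 log2 units for 10 members (31.2%, against 3.93% of all genes). The 5 widest gaps were 1.48 for Usp18, 1.22 for Oasl2, 0.79 for Ifit1, 0.74 for Mx2 and 0.72 for Rtp4. The median gap was 0.21 for the members and 0.00 for all genes. The mean of wild type 1 and 2 was above wild type 3 for 28 members (43.3% of all genes), with a median of 0.23 against 0.00. For 22 members (68.8%) run 1 was above run 2 in both genotypes, which held for 21.4% of all genes, and Zbp1 was the single member with run 1 below run 2 in both. This split of the arrays was looked at after the values were known, and no test of it was made.

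**Figure D3:**
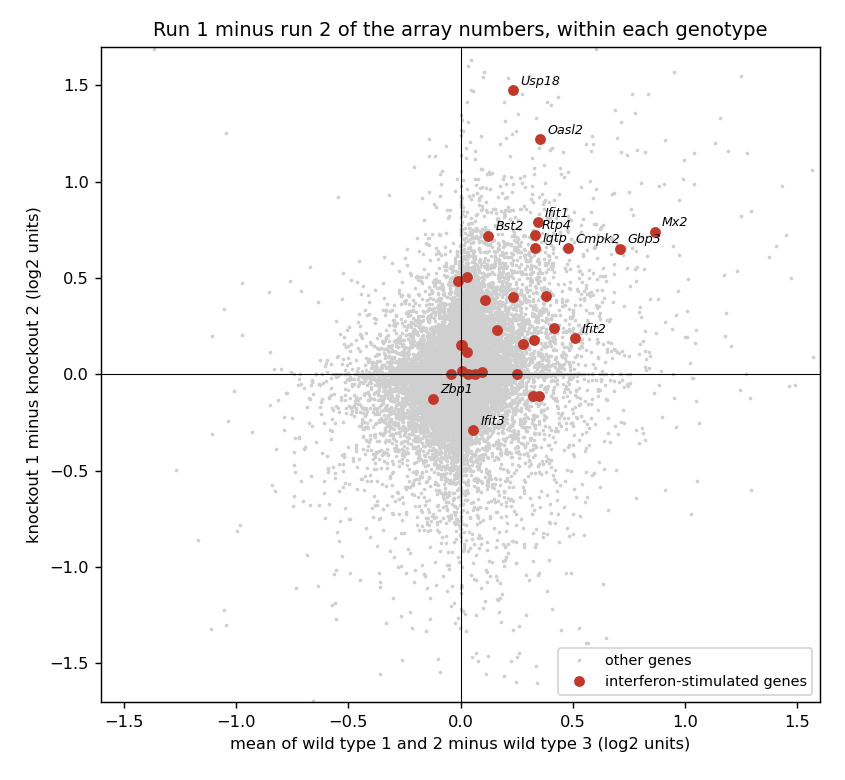
Run 1 minus run 2 within each genotype, for the wild type (x axis, mean of wild type 1 and 2 minus wild type 3) and the knockout (y axis, knockout 1 minus knockout 2), in log2 units, with the members in red over the other genes in grey and 32 genes beyond the axes not drawn. Of the 32 members 22 lie above 0 on both axes, with Usp18 and Oasl2 the highest on the y axis.

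The lowest of the 5 arrays was knockout 2 alone for 15 members (46.9%, against 22.5% of all genes) and wild type 3 alone for 11 (34.4%, against 15.3%). Wild type 2 was alone the highest for 14 members (43.8%, against 15.4% of all genes) and knockout 1 for 11 (34.4%, against 17%). The mean of the members, each set against its own wild-type mean, was 0.10 on knockout 1 and -0.23 on knockout 2, and 0.02, 0.13 and -0.15 on the wild-type arrays. Wild type 3 therefore lay nearer to knockout 2 than to the other wild-type arrays. Many values are exactly equal between arrays in this table: at least 2 of the 5 were equal to 6 decimals for 14 members and for 68.8% of all genes. Among genes with 5 different values, run 1 was above run 2 in both genotypes for 15 of 18 members and 34.9% of 6930 genes. After quantile normalization of the deposited values it was 21 members and 30.6% of all genes, and after median centring 25 members and 30.8%.

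**Figure D4:**
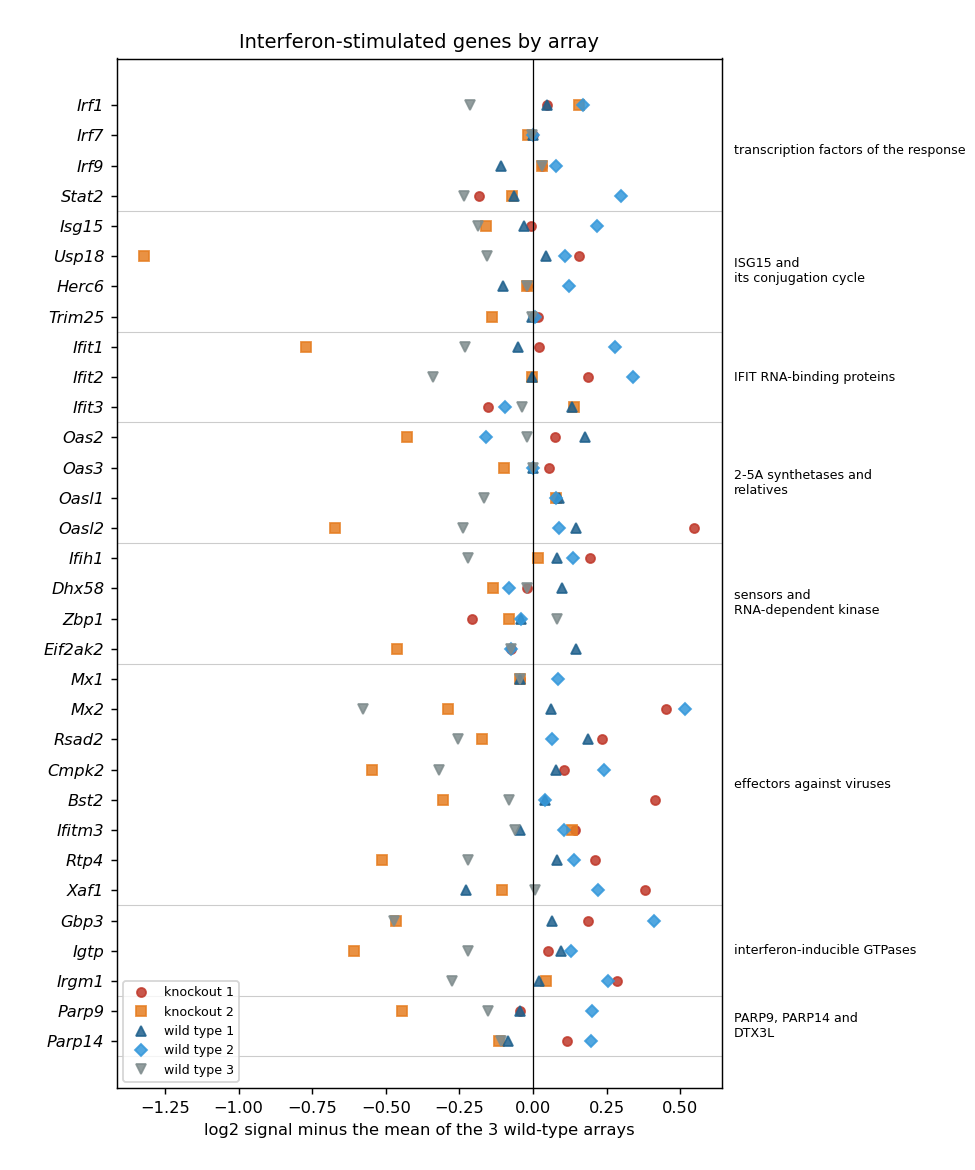
Log2 signal of each measured member on each array minus the mean of its 3 wild-type arrays (x axis), with genes grouped by role (rows). Knockout 2 (orange squares) is alone the lowest for 15 of the 32 members and wild type 3 (grey triangles) for 11.

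The gap between the knockout arrays was also set beside the promoter letters. Of the 13 members with an ISRE core, 11 were higher on knockout 1 than on knockout 2, with a median gap of 0.24. Of the 10 members with a window and no match, 6 were higher, with a median of 0.09, and Oasl2 with its gap of 1.22 was among them. The rest were Irf9, Herc6 and Oasl1, equal on both knockout arrays, and Irf1, which was lower. In the group with an ISRE core, Stat2 and Ifit3 were lower, so the counts differ partly through ties. Members without a window, such as Usp18, Mx2, Rtp4 and Zbp1, are in neither group. Among the other tested genes with a window, 39.4% of the 644 with an ISRE core and 38.5% of the 16323 without it were higher on knockout 1, and both medians were 0.00.

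Other genes of the interferon pathway, upstream and downstream, did not pass the test either. Of 123 measured genes in 7 lists, none reached a limma adjusted p of 0.05. Among the 19 interferon ligands, 4 had a higher and 15 a lower mean in the knockout (median -0.06). Ifnb1 read 2.86 and 2.93 against 3.11, 2.93 and 2.93, and Ifna4 differed by -0.08 ± 0.05 (SE). The ligands did not share the order of the arrays, since wild type 3 had their highest mean, 0.11 above the wild-type mean. Of the 6 receptor chains 4 had a higher mean (median 0.03), with Ifnlr1, the receptor of type III interferons, at 0.10 ± 0.11 and Ifnar1, a chain of the type I receptor, at 0.04 ± 0.06. Of the 6 measured JAK, STAT and IRF genes 5 had a lower mean and none a higher mean (median -0.03), with Irf8, a factor of myeloid cells, at -0.26 ± 0.22.

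The 14 sensors and adaptors split evenly, 7 higher and 7 lower, and Myd88, the adaptor of most Toll-like receptors, differed by 0.09 ± 0.04 (SE). Of the 12 inhibitors and nucleic acid clearing genes 4 had a higher and 7 a lower mean (median -0.01). Socs1, an inhibitor of JAK kinases, read 4.70 and 4.49 against 4.79, 4.78 and 4.70, and Samhd1, a nucleotide hydrolase, differed by -0.26 ± 0.14 (SE). Socs3, a related inhibitor of cytokine signalling, read 7.68 and 8.06 in the knockout against 7.65, 7.65 and 7.41, so its groups did not overlap. Its difference was 0.30 ± 0.16 (SE; limma adjusted p = 0.919). Among the pathway genes named, Ifna4, Myd88 and Phf11b also had groups without overlap, as did 5.43% of all genes in either direction. Further interferon-stimulated genes outside the list, 53 measured, gave 20 higher and 32 lower means (median -0.03). Phf11b had the smallest unadjusted p among them, 0.00978, at 6.03 and 5.87 against 6.25, 6.41 and 6.41, and differed by -0.40 ± 0.08 (SE; limma adjusted p = 0.919). The 13 genes of MHC class I presentation and the immunoproteasome gave 5 higher and 8 lower means (median -0.03), with Tap2, a peptide transporter, at -0.19 ± 0.11.

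The order of the arrays seen in the members was found in some of these lists and not in others. The mean of the 53 further interferon-stimulated genes was 0.07 on knockout 1 and -0.16 on knockout 2, and 0.03, 0.11 and -0.14 on the wild-type arrays, with 33 of the 53 higher on knockout 1 than on knockout 2. The MHC class I list stood at 0.08 and -0.16 in the knockout and at 0.00, 0.07 and -0.07 in the wild type, and had 11 of 13 genes higher on knockout 1. The 16 macrophage and monocyte markers had the same lowest arrays as the members, at 0.00 and -0.23 on the knockout arrays and 0.06, 0.16 and -0.23 on the wild-type arrays, with 12 of 16 higher on knockout 1. Their mean signal was 5.29 to 5.52 in the knockout and 5.29 to 5.68 in the wild type. The 15 epithelial markers also had these lowest arrays, at 0.11 and -0.12 in the knockout and 0.01, 0.05 and -0.07 in the wild type, with 13 of 15 higher on knockout 1. The part of these cells in the members' values was not tested.

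Markers of other cells did not share the whole order of the members, although wild type 3 was the lowest wild-type array in each of these lists. The 11 endothelial markers were all lower on knockout 1 than on knockout 2, at -0.45 and 0.26. In the wild type they stood at -0.06, 0.24 and -0.18. The mean of wild type 1 and 2 was above wild type 3 for all 11. Their mean signal was 6.22 to 6.92 in the knockout and 6.48 to 6.91 in the wild type. The 9 fibroblast markers stood at 0.12 and 0.18 in the knockout and at -0.07, 0.35 and -0.29 in the wild type. Here too the mean of wild type 1 and 2 was above wild type 3 for all 9. The 14 T and NK cell markers were highest on wild type 1, at 0.31, and lay between -0.18 and -0.14 on the other 4 arrays. The 10 B and plasma cell markers stood at -0.17 and -0.22 in the knockout and at 0.04, 0.10 and -0.14 in the wild type. The 11 dendritic cell markers were highest on knockout 2, at 0.09, and the 8 adipocyte markers were also highest there, at 0.16.

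**Figure D5:**
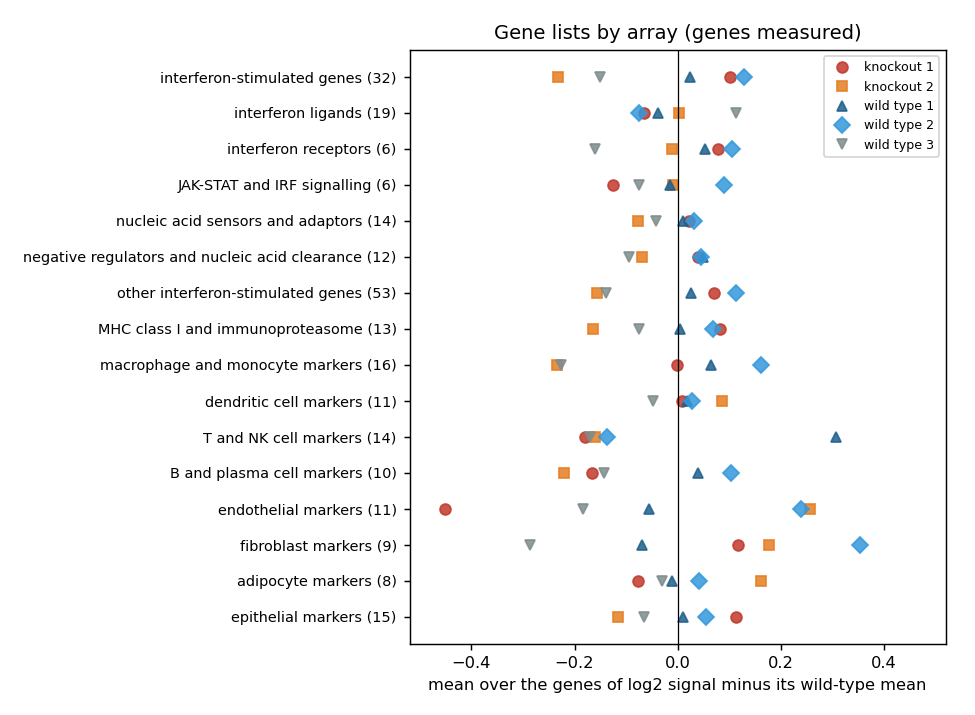
Mean over the genes of each list of the log2 signal minus its wild-type mean (x axis) on each array, with the number of genes measured in brackets. Knockout 2 and wild type 3 are the lowest arrays of the members, the further interferon-stimulated genes, the receptors, the sensors and adaptors, the negative regulators, the MHC class I list, the macrophage markers and the epithelial markers, while the endothelial markers are lowest on knockout 1, at -0.45.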

How the data were processed

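The 5 arrays hold biotin-labelled cDNA from 10 ng of total RNA of cells freed with collagenase from inguinal glands without the lymph node, per the labels' protocols. The authors deposited a log2 signal for each probe set, and the submitters' processing notes name RMA and limma with no version. Library files and genome build: not given in the sources used here. Of 41345 probe sets, 23521 have 1 symbol in the platform annotation, 1814 have several and 16010 are not listed. Those with 1 symbol were used, and the 1082 genes with several were represented by the probe set of highest mean. Genotype was the only term in a fit by limma 3.58.1 (lmFit, then eBayes; R 4.3.3), and its two-sided p-values were adjusted over 22180 genes after Benjamini and Hochberg. SE is limma's moderated SE. The procedure was tested on simulated data. The members and the gene lists were chosen with earlier results of these data known. The rule for named genes took each measured member, up to 3 genes of a pathway list and up to 2 of a marker list by moderated t, and Mmp14; Mmp14 and a few of these genes had been described before, and fewer than the rule allows are named. Of 137 pathway genes 123 were measured. Alternatives were other normalizations, blocks, filters, variance estimates and left-out arrays. The number of arrays limits the precision.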

Additional observations from a re-analysis of the deposited data

How the results depend on the processing

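Taking each run alone was a choice made after seeing the data, unlike the remaining alternatives. With all 5 arrays, no member passed limma's adjusted p of 0.05 under another normalization, block, filter, probe set rule, variance estimate or array weighting, nor in run 1 alone. Over all genes 0 passed with all 5 arrays and in run 1 alone, and 288 had an unadjusted p under 0.05. With 1 array left out the members called ranged from 0 to 2 and the genes called from 0 to 1757 (835 without knockout 2); a lone knockout array is assumed to vary like the wild type. The members with a higher knockout mean ranged from 5 to 23, those whose groups do not overlap from 2 to 18, and the median difference from -0.13 to 0.06. The 18 came without knockout 1 and 13 without knockout 2, where 46.3% and 37.6% of all genes had groups without overlap. In run 1 alone the fit counted 17 members as higher (56.6% of all genes). These counts include genes with equal values, such as Irf7 with a difference of 0, so they overstate the share. With such ties left out, knockout 1 was above the mean of wild type 1 and 2 for 16 members (50%) and 44% of all genes. In run 1 alone 15 members had groups without overlap (46.6% of all genes), and after quantile normalization 0 members had such groups (15.8% of all genes). Deviations from the group means over all genes correlated at 0.245 for number 1 and -0.0436 for number 2. With 2 knockout arrays these deviations mirror each other, so the values cannot tell whether the replicate numbers pair the arrays. With the replicate number as a block, which leaves wild type 3 out of the comparison, 0 members were called and 5 were higher in the knockout. The sign of 6 members held whichever array was left out. Where it turned, no cause was tested.

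With the replicate block, the differences with the other sign were Irf1 -0.0057, Ifit2 -0.078, Oasl1 -0.0054, Ifih1 -0.0045, Mx2 -0.21 and Rsad2 -0.097. With the run as a fixed block they were Oasl2 0.058 and Parp14 0.031, and with it as a random block Parp14 0.0052. Quantile normalization gave Irf7 0.010, Ifit3 0.0043 and Parp14 0.018, median centring Ifit3 0.00036 and Parp14 0.0062, and array weights Rsad2 -0.018 and Parp14 0.0080. Run 1 alone gave Irf1 -0.061, Usp18 0.078, Trim25 0.015, Oas2 0.066, Oas3 0.053, Oasl1 -0.0054, Oasl2 0.43, Rtp4 0.100 and Parp14 0.060. Run 2 alone gave Stat2 0.16, Isg15 0.025, Ifit3 0.18, Bst2 -0.22, Xaf1 -0.11 and Gbp3 0.0084. With 1 array left out the differences that turned ranged as follows: Bst2 -0.31 to 0.42, Cmpk2 -0.55 to 0.11, Gbp3 -0.47 to 0.19, Herc6 -0.072 to 0.040, Ifih1 -0.0045 to 0.20, Ifit1 -0.77 to 0.020, Ifit2 -0.078 to 0.26, Ifit3 -0.15 to 0.14 and Igtp -0.61 to 0.050. Irf1 ranged from -0.0057 to 0.19, Irf7 from -0.017 to 0.0017, Irf9 from -0.025 to 0.069, Isg15 from -0.18 to 0.026, Mx2 from -0.29 to 0.45, Oas2 from -0.43 to 0.076, Oas3 from -0.098 to 0.053 and Oasl1 from -0.0054 to 0.12. Oasl2 ranged from -0.67 to 0.55, Parp14 from -0.12 to 0.12, Rsad2 from -0.17 to 0.23, Rtp4 from -0.51 to 0.21, Stat2 from -0.24 to 0.022, Trim25 from -0.14 to 0.017, Usp18 from -1.32 to 0.16 and Xaf1 from -0.10 to 0.38.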
